A study of Homo sapiens with 4 samples.

Results

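The keratins and the claudins are the gene families that build the filament skeleton and the tight junctions of epithelial cells, and they were followed here in MDA-MB-231, a human breast cancer cell line of mesenchymal appearance. The members were the protein-coding genes whose symbol was KRT or CLDN followed by a number, with a letter allowed after the number for keratins. There were 79 members, 56 keratins and 23 claudins, among 48162 listed genes, of which 20312 were protein-coding. The symbol KRT222 was listed for 2 identifiers, and both were kept.

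Cells growing in DMEM with fetal bovine serum and antibiotics were treated for 24 h with MGH-CP1, an inhibitor of the palmitoylation of the TEAD transcription factors, or with vehicle (DMSO in the file headers). The labels give 10 µM of MGH-CP1 and the study's methods 10 mM. Each condition had 2 libraries of poly-A selected RNA, and the cells carried no other stated alteration. No source states that the libraries came from separate cultures, so the p-values measure only the spread between these libraries, which may be technical.

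Values are FPKM, fragment numbers scaled to gene length and to the fragments counted in the library. The fragments behind them were recovered. The vehicle control libraries, called controls here, held 25455533 and 25508824 of them, and the MGH-CP1 libraries were shallower, with 17997221 and 17577930. On a gene of 2000 bases, 3 fragments in a library correspond to 0.0588 to 0.0853 FPKM, and a member listed at 0 cannot be told from one below that order of level. Means are given with the SD over 2 libraries. In bulk RNA, fewer cells expressing a gene and less RNA of it per cell cannot be told apart.

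Keratins form filaments as obligate pairs of a type I and a type II protein. Simple epithelia such as the luminal lining of the breast use KRT8 and KRT7 with KRT18 and KRT19, basal layers of stratified epithelia use KRT5 with KRT14, and other members serve the cornified epidermis, the hair shaft and its root sheath. Claudins are four-pass membrane proteins that seal tight junctions or make them selectively permeable, and low levels of CLDN3, CLDN4 and CLDN7 gave claudin-low breast cancers their name.

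The mesenchymal label was checked against marker genes, and the picture was mixed. The intermediate filament gene VIM was at 281 and 267 FPKM in the controls and at 259 and 262 with MGH-CP1, the hyaluronan receptor gene CD44 was between 198 and 221 in all 4, and the repressor gene ZEB1 was between 15.4 and 17.0. Other mesenchymal genes were near 0, with CDH2 (N-cadherin) at no more than 0.172 FPKM, SPARC at no more than 0.117 and TWIST1 at no more than 0.0706. On the epithelial side, CDH1 (E-cadherin) was at 0.363 and 0.290 FPKM without the inhibitor and at 0.638 and 0.572 with it, and the epithelial regulators ESRP1 and GRHL2 did not exceed 0.0520. The surface protein gene EPCAM, in contrast, was present at 12.4 to 16.4 FPKM. The line therefore lacked E-cadherin transcripts almost entirely but kept part of the epithelial marker list.

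Of the 56 keratins 28 had no fragment in any library, and 4 simple epithelial ones reached at least 100 FPKM. No fragment was found in any library for 33 of the 79 members, which were 28 keratins and 5 claudins (CLDN8, CLDN17, CLDN19, CLDN22 and CLDN25). Any fragment at all was seen for 50% of the keratins, 78.3% of the claudins and 78.7% of all protein-coding genes. A mean of at least 1 FPKM over the 4 libraries, used here as the limit for expression and for testing, was reached by 9 keratins (16.1%), 8 claudins (34.8%) and 53.9% of protein-coding genes. At least 10 FPKM was reached by 8 members.

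The expressed keratins, from the highest mean level to the lowest, were KRT19, KRT8, KRT7, KRT18, KRT80, KRT10, KRT81, KRT86 and KRT15. The expressed claudins were CLDN4, CLDN12, CLDN7, CLDN2, CLDN15, CLDN3, CLDN11 and CLDN1. KRT15 reached the limit only through the MGH-CP1 libraries, with a mean of 1.00 FPKM, and so had to differ between the conditions, and CLDN1 (1.08) and CLDN11 (1.10) reached it only through the vehicle control libraries. Counts over the 17 expressed members are therefore given as description. Just below the limit was KRT222, with a mean of 0.591 FPKM.

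**Figure D1:**
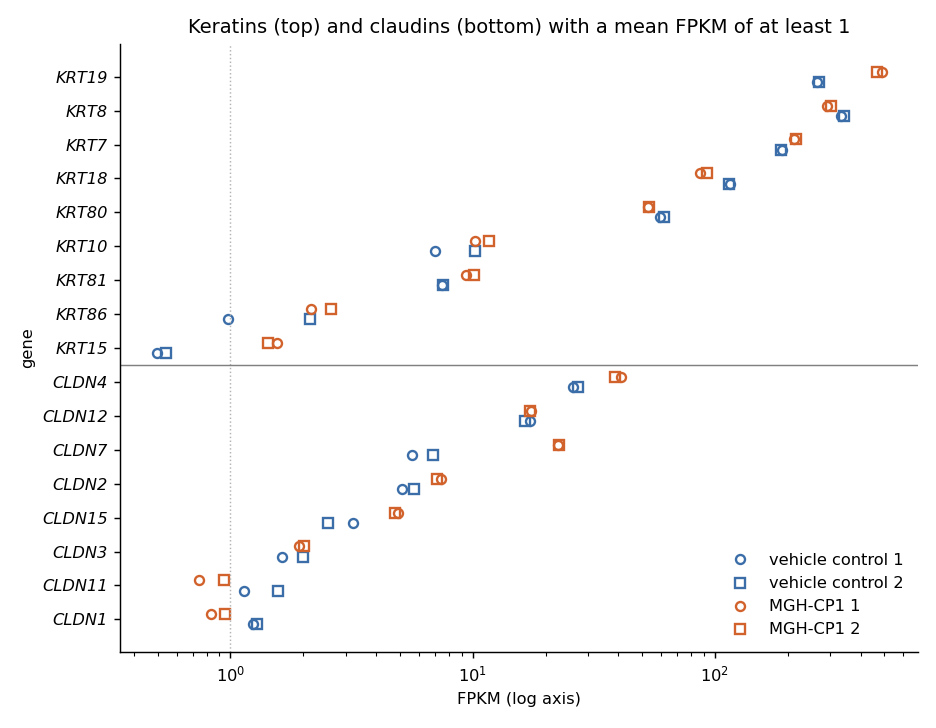
FPKM of each expressed keratin (top) and claudin (bottom) in the 2 vehicle control and 2 MGH-CP1 libraries, on a log axis, with a dotted line at 1 FPKM. The 4 simple epithelial keratins lie farthest to the right, with KRT80 next, and the MGH-CP1 symbols of KRT19, CLDN7, CLDN4 and KRT15 lie to the right of their vehicle control symbols.

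The keratin genes sit in 2 arrays, and expression in each was limited to a few members. In the coordinates of the files, which the submitters' processing notes give as hg19, 27 keratins lay on chromosome 12 between 52562780 and 53346685, and 6 of these were expressed. The other 29 lay on chromosome 17 between 38785049 and 39781094, and 3 were expressed. KRT19 and its expressed neighbour KRT15 adjoin on chromosome 17, and KRT8 and KRT18 adjoin on chromosome 12. The claudins were scattered over the genome, and the 4 on chromosome 7 (CLDN3, CLDN4, CLDN12 and CLDN15) were all expressed.

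By cell type, 4 of the 6 simple epithelial keratins were expressed, and KRT20 and KRT23 had 1 fragment each in the 4 libraries together. Of 17 keratins of basal and stratified layers, KRT80 and KRT15 were expressed and 7 were at 0 everywhere. The basal pair KRT5 and KRT14 stayed between 0.171 and 0.450 FPKM and between 0.0669 and 0.582 FPKM. Of 5 cornifying keratins only KRT10 was expressed, of 17 hair keratins only KRT81 and KRT86, and all 9 root sheath keratins were at 0.

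Detection below 1 FPKM concerned 29 members, of which 24 also had under 10 fragments on average. In that range 3 keratins of stratified epithelia had more fragments in the second MGH-CP1 library than elsewhere, and they were chosen after their values were seen. KRT6A, a keratin of activated epidermis, had 2, 2 and 0 fragments in the other libraries and 20 in that one. KRT16, the partner of KRT6A, had 2, 3 and 2 fragments against 11, and KRT14 had 6, 9 and 2 against 17. Others did not follow, since KRT5 had 11, 20 and 12 against 20, KRT17 had 0, 5 and 0 against 2, KRT13 had 1, 1 and 1 against 0, and KRT6B and KRT6C had none. The KRT16 pseudogenes had 7, 0 and 17 against 10. The keratinocyte genes LOR, IVL, SPRR2A, KRTDAP and DSG1 were at 0 in all 4 libraries, SPRR1B had 2 fragments in that library and none elsewhere, and the summed level of the 10 keratinocyte markers there, 3.88 FPKM, was below the other libraries' 4.41 to 5.65. The part of this library in the results below was not tested other than by leaving it out.

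The conditions were compared with limma on log2(FPKM + 1) over the 12080 genes with a mean of at least 1 FPKM, with Benjamini-Hochberg adjustment and a threshold of 0.05. The inhibitor moved much of the transcriptome, with 50.8% of the genes tested past the threshold, 27.1% higher and 23.8% lower. Of the 17 expressed members, 8 were higher, 3 were lower and 6 did not pass. KRT15, which had to differ because of the limit, is among the 8 and in the keratin values that follow. Among keratins 7 of 9 passed, and among claudins 4 of 8. The median log2 fold change was 0.34 for the keratins and 0.22 for the claudins, beside 0.01 for all genes tested. The keratin median is the value of KRT10, which did not pass. CLDN1 and CLDN11, which had to be lower because of the limit, are in the claudin median and in the next count. The values of both conditions did not overlap for 14 of the 17 members, 9 with MGH-CP1 above the controls and 5 below, beside 77.2% of all genes tested (39.8% above and 37.4% below). A single gene compared by an exact permutation test of 2 libraries against 2 cannot go below p = 0.333. Fold changes on this scale understate the change of genes near 1 FPKM, so for those the ratio of mean FPKM is given as well.

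**Figure D2:**
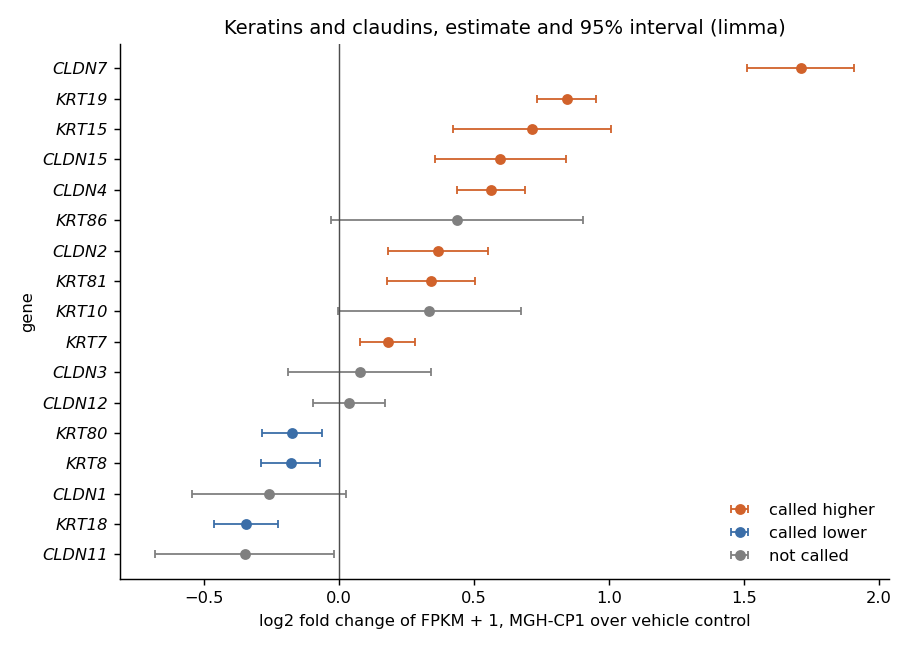
Log2 fold change of FPKM + 1, MGH-CP1 over vehicle control, for the 17 expressed members, with 95% intervals from limma. Orange points were higher and blue points lower past the adjusted threshold, and grey points did not pass; CLDN7 at 1.71 and KRT19 at 0.84 lie farthest to the right.

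KRT19 had the highest mean level of the keratins over the 4 libraries and rose with MGH-CP1. It is the smallest keratin, a type I protein that lacks most of the usual tail domain, and its gene (ENSG00000171345) lies at chr17:39679869-39684560 on the minus strand. Its level was 263.8 and 270.6 FPKM in the controls and 491.1 and 469.3 FPKM with MGH-CP1, so both treated values lay far above both controls. The means were 267 ± 4.76 and 480 ± 15.5 FPKM, a 1.8-fold rise (log2 fold change 0.84, SE 0.05, limma adjusted p = 2.0e-05). Of all genes tested, 3.06% rose more on the log2 scale. No 100-base stretch of its transcripts occurred in another annotated gene.

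KRT18, the other abundant type I keratin, moved the opposite way. Its gene (ENSG00000111057, chr12:53342655-53346685, plus strand) gave 115.3 and 114.0 FPKM without the inhibitor and 86.75 and 93.24 FPKM with it, with no overlap between conditions. The level fell from 115 ± 0.940 to 89.99 ± 4.58 FPKM, which is 21.5% less (log2 fold change -0.35, SE 0.05, limma adjusted p = 9.26e-04). The ratio of KRT19 to KRT18 FPKM accordingly went from 2.29 and 2.37 to 5.66 and 5.03.

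The abundant type II keratins KRT8 and KRT7 changed less. KRT8, the usual partner of KRT18 (ENSG00000170421, chr12:53290977-53343738, minus strand), was at 331.6 and 340.9 FPKM in the controls and at 291.2 and 302.6 FPKM with MGH-CP1. It was 11.7% lower (log2 fold change -0.18, SE 0.05, limma adjusted p = 0.0138), and the call was lost without the first MGH-CP1 library (limma adjusted p = 0.108), without a filter on low values (limma adjusted p = 0.0797) and without the variance trend (limma adjusted p = 0.0572). KRT7, a type II keratin of glandular epithelia (ENSG00000135480, chr12:52626304-52645970, plus strand), was at 188.7 and 188.5 FPKM against 211.9 and 215.8 FPKM. It was 1.13-fold higher (log2 fold change 0.18, SE 0.04, limma adjusted p = 0.0101), and this call was lost without the second MGH-CP1 library (limma adjusted p = 0.0687). Of its windows 4.26% lie in the antisense gene KRT7-AS. In both type II genes the groups did not overlap, but the differences were small beside that of KRT19.

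KRT8 and KRT18 overlap at their 5′ ends by 1084 bases on opposite strands, and whether the counting used strand is not given in the sources used here. In GENCODE transcripts 8.39% of the 100-base windows of KRT18 and 3.91% of those of KRT8 lay in the shared stretch. Both genes have many processed pseudogenes. The 44 listed KRT8 pseudogenes held 0.534% to 0.716% as many fragments as KRT8, and the 39 of KRT18 held 0.0584% to 0.379% as many as KRT18.

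Added over all type I members, the keratin level was 388 and 397 FPKM in the controls and 591 and 578 FPKM with MGH-CP1, a 1.49-fold difference. The type II sum was 588 and 601 FPKM against 568 and 586 FPKM, where the groups did not overlap but their means differed only by a ratio of 0.970. The ratio of type I to type II transcripts was 0.660 in both controls and 1.04 and 0.986 with MGH-CP1. KRT19 made up 68.0% and 68.2% of type I FPKM without the inhibitor and 83.1% and 81.2% with it, and KRT18 went from 29.7% and 28.7% to 14.7% and 16.1%. Within type II, KRT7 went from 32.1% and 31.4% to 37.3% and 36.8%.

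**Figure D3:**
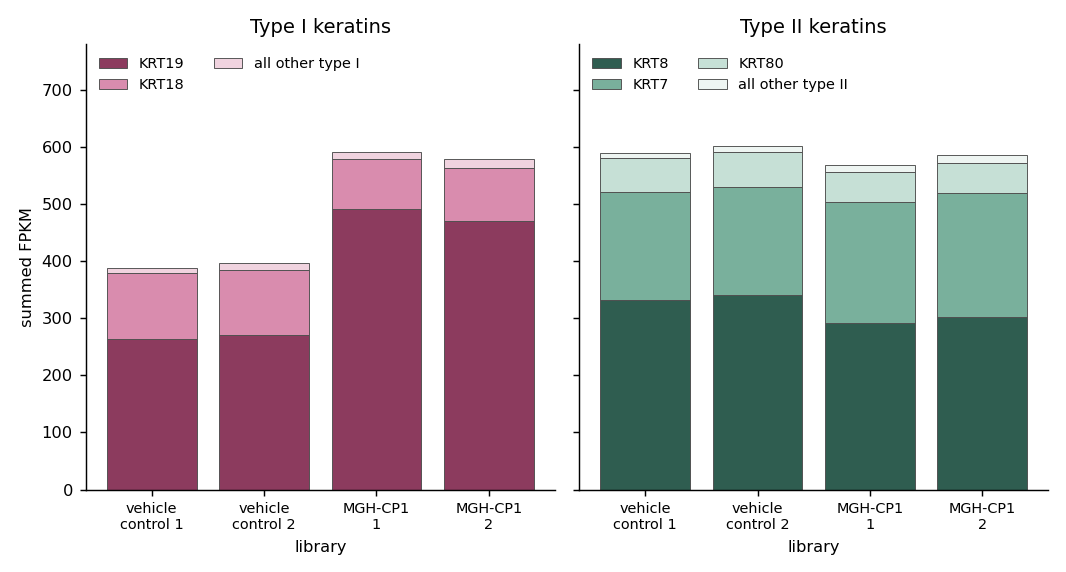
Summed FPKM of type I (left) and type II (right) keratins in each library, with the leading genes as segments of the bars. The type I bars rise from 388 and 397 to 591 and 578 FPKM through the KRT19 segment, while the type II bars stay between 568 and 601 FPKM.

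The remaining expressed keratins were lower in level. KRT80, a type II keratin of stratified and differentiating epithelia (ENSG00000167767), was at 59.30 and 61.56 FPKM against 53.11 and 53.65 FPKM. The difference was a ratio of 0.883 (log2 fold change -0.18, SE 0.05, limma adjusted p = 0.0166), and the call was lost without vehicle control replicate 2 or either MGH-CP1 library (limma adjusted p = 0.0608 to 0.0816) and without the variance trend (limma adjusted p = 0.0572). KRT15, a type I keratin of basal cells without a fixed partner (ENSG00000171346, chr17:39669995-39678781, minus strand), had 66 and 72 fragments in the deeper controls and 146 and 132 with MGH-CP1. In FPKM this was 0.495 and 0.539 against 1.55 and 1.43, a 2.89-fold difference (log2 fold change 0.72, SE 0.13, limma adjusted p = 0.00220). KRT15 reached the limit for testing only through the MGH-CP1 libraries, so this p-value is no support for the difference. Without a filter on low values the limma adjusted p was 0.0214.

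The hair keratin KRT81 was at 7.47 and 7.52 FPKM in the controls and at 9.39 and 10.1 FPKM with MGH-CP1, a 1.3-fold rise (log2 fold change 0.34, SE 0.07, limma adjusted p = 0.00465). The neighbouring hair keratin KRT86 was at 0.977 and 2.14 FPKM against 2.15 and 2.61, where the first control library was well below the second (ratio 1.53, limma adjusted p = 0.105). KRT81 and KRT86 could not be separated cleanly, since 28.8% of the 100-base windows of KRT81 also occur in KRT86. In the listed coordinates KRT81 lies within KRT86 on the other strand. KRT86 overlaps KRT7 on the same strand over 2887 bases. KRT7 had 6653 to 8435 fragments a library beside 52 to 114 for KRT86, and its part in the KRT86 value was not tested. KRT10, the type I keratin of the upper epidermis, was at 6.97 and 10.2 FPKM against 10.2 and 11.7 FPKM, and the groups overlapped (limma adjusted p = 0.0896). It lies opposite TMEM99, which had 324 to 402 fragments beside 377 to 555 for KRT10. Without vehicle control replicate 2 the log2 difference of KRT10 was 0.58 (limma adjusted p = 0.000848), and without replicate 1 it was 0.09 (limma adjusted p = 0.509). For KRT86 the same omissions gave 0.77 (limma adjusted p = 0.00340) and 0.11 (limma adjusted p = 0.624), so the first vehicle control library decided both values.

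CLDN7 changed more than any other member tested. The protein is found along the lateral membrane of epithelial cells and binds EPCAM, and the gene (ENSG00000181885) lies at chr17:7163222-7167302 on the minus strand. It had 276 and 337 fragments in the controls and 781 and 770 with MGH-CP1, whose libraries were shallower. In FPKM this was 5.64 and 6.87 against 22.57 and 22.78, so the treated libraries agreed closely and stood well apart from both controls. The means were 6.25 ± 0.871 and 22.7 ± 0.151 FPKM, a 3.63-fold rise (log2 fold change 1.71, SE 0.09, limma adjusted p = 1.5e-05). Only 22 of the genes tested, 0.182%, rose more on that scale. The gene meets ELP5 on the other strand over 38 bases, and ELP5 itself had 703 and 698 against 494 and 418 fragments.

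CLDN4, the most abundant claudin, was higher as well. The gene encodes a sealing claudin that binds Clostridium perfringens enterotoxin (ENSG00000189143, chr7:73213872-73247014, plus strand). It was at 26.08 and 27.18 FPKM without the inhibitor and at 40.91 and 38.76 FPKM with it, a rise from 26.6 ± 0.774 to 39.8 ± 1.52 FPKM (1.5-fold, log2 fold change 0.56, SE 0.05, limma adjusted p = 1.28e-04). CLDN3, which lies beside it, was low in both conditions, at 1.64 and 2.002 FPKM against 1.92 and 2.01 FPKM, a ratio of 1.08. Its log2 difference was 0.08 with a 95% interval of -0.19 to 0.34 (limma adjusted p = 0.604), and its sign turned when vehicle control replicate 1 was left out or under quantile normalization. The sum of the 3 genes whose low level names the claudin-low tumours was 33.4 and 36.0 FPKM against 65.4 and 63.5 FPKM, a 1.86-fold difference carried by CLDN4 and CLDN7.

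The channel-forming claudins expressed here were CLDN2 and CLDN15, which make junctions permeable to cations. CLDN15 (chr7:100875373-100882101, minus strand) was at 3.21 and 2.54 FPKM against 4.90 and 4.78 FPKM, which is 1.69-fold higher (log2 fold change 0.60, SE 0.11, limma adjusted p = 0.00215). CLDN2 (ENSG00000165376, chromosome X) was at 5.13 and 5.74 FPKM against 7.43 and 7.15 FPKM, which is 1.34-fold higher (log2 fold change 0.37, SE 0.08, limma adjusted p = 0.00609). CLDN2 lies within MORC4 on the other strand, and MORC4 had 7111 to 7740 fragments a library beside 396 to 461 for CLDN2, so some CLDN2 fragments could belong to MORC4 if strand was not used.

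CLDN12, an atypical claudin without the usual scaffold-binding end, was the most even member. It was at 17.31 and 16.46 FPKM in the controls and at 17.46 and 17.24 FPKM with MGH-CP1, and the 95% interval of its log2 difference ran from -0.10 to 0.17 (limma adjusted p = 0.618). CLDN1 and CLDN11 were the only expressed claudins with lower values under the inhibitor. Both are barrier claudins, but the 3 expressed barrier claudins also include CLDN3, with a ratio of 1.08. The sealing claudin CLDN4 was higher. CLDN1, which seals the epidermis, had 1.24 and 1.28 FPKM against 0.830 and 0.948 (ratio 0.704, log2 difference -0.26, SE 0.12, limma adjusted p = 0.113). CLDN11, the claudin of myelin and of the testis, had 1.14 and 1.57 FPKM against 0.743 and 0.944 (ratio 0.622, log2 difference -0.35, SE 0.14, limma adjusted p = 0.0734). Neither passed the test, although neither gene's groups overlapped, so that limma called 0 claudins lower. Before adjustment, limma put 1 of them, CLDN11, under 0.05 and lower, and limma voom called 0 claudins lower. Both were called lower under quantile normalization (limma adjusted p = 0.0210 for CLDN1 and 0.0164 for CLDN11) and without the variance trend (limma adjusted p = 0.0213 and 0.0436). CLDN1 and CLDN11 reached the limit for testing only through the vehicle control libraries. These p-values and the lack of overlap are therefore no support for a difference. Without a filter on low values the limma adjusted p was 0.154 for CLDN1 and 0.199 for CLDN11. Of the windows of CLDN11, CLDN12 and CLDN7, 15.7%, 8.36% and 6.14% also lay in other annotated genes.

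Claudin transcripts added up to 62.8 and 64.6 FPKM in the controls and 97.7 and 95.6 FPKM with MGH-CP1, a 1.52-fold difference. CLDN7 went from 8.97% and 10.6% of that sum to 23.1% and 23.8%, whereas CLDN12 went from 27.6% and 25.5% to 17.87% and 18.03%. CLDN4 kept a near constant share of 40.5% to 42.0%. The ratio of CLDN7 to CLDN4 FPKM was 0.216 and 0.253 without the inhibitor and 0.552 and 0.588 with it.

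**Figure D4:**
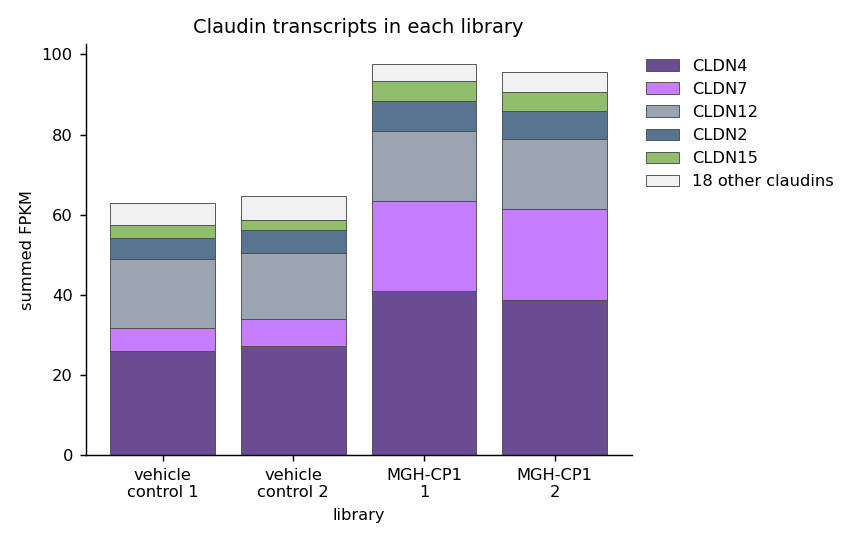
Summed FPKM of all claudins in each library, divided into the 5 most abundant genes and the 18 others. The bars rise from 62.8 and 64.6 to 97.7 and 95.6 FPKM, mainly through the CLDN7 and CLDN4 segments, while the CLDN12 segment stays near 17 FPKM.

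The fragments themselves allowed a test of rarer members. With limma voom on the recovered fragments of 14443 genes, 22 members were tested and 14 passed, beside 49.2% of all genes tested. All 11 members that passed on the FPKM scale did so here in the same direction, and KRT10, KRT86 and KRT222 were added as higher. The fragments were recovered from the same FPKM of the same libraries, so the shared direction is no separate support. KRT222, a keratin-like gene, was at 0.361 and 0.454 FPKM against 0.888 and 0.659 (voom log2 fold change 0.91, SE 0.35, limma voom adjusted p = 0.0298), but 45.8% of its windows are shared with SMARCE1. The other 4 newly tested members did not pass, with voom log2 differences of -0.74 for the hair keratin KRT34 and 0.58 for KRT5, and of -0.41 and 0.55 for the claudins CLDN23 and CLDN9 (limma voom adjusted p = 0.194 to 0.478).

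The upstream sequence of the claudins called higher is shown as a description. They were picked by those calls, and whether they share a cause was not tested. For 10 of the 17 expressed members RefSeq gave the 250 bases before the gene start on GRCh38.p14; KRT8, KRT10 and all 8 expressed claudins were matched. Each was searched on both strands for TEAD (GGAATG), AP-1 (TGANTCA), the E-box bound by ZEB1 and SNAI2 (CAGGTG), GRHL (AACCNGTT), the CCAAT box (CCAAT), the TATA box (TATAAA) and the GC box (GGGCGG). The AP-1 letters, capitalised in the following lines, read 5′ to 3′ on the strand of the gene, occurred in 3 of the 4 matched members that rose, CLDN4, CLDN15 and CLDN2, and CLDN7 is printed as the one without them.
CLDN4, chr7:73830746-73830995, plus strand, bases 250 to 1 before the start: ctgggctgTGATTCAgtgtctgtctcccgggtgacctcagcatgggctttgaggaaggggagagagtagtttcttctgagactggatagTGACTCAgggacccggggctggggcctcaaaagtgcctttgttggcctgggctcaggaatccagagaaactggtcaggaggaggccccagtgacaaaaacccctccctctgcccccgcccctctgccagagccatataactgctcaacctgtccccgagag
CLDN15, chr7:101237953-101238052, minus strand, the first 100 bases of the window: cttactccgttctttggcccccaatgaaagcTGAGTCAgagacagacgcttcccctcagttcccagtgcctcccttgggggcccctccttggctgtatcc
CLDN2, chrX:106900064-106900163, plus strand, bases 100 to 1 before the start: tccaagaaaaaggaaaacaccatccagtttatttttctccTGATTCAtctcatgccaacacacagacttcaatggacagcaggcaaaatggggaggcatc
CLDN7, chr17:7263214-7263463, minus strand, bases 250 to 1 before the start: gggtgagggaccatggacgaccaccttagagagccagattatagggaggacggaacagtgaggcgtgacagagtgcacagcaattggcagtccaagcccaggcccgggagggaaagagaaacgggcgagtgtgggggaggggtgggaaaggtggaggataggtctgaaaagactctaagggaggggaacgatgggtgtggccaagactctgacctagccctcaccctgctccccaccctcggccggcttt

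The AP-1 letters stood at bases 242 to 236 and 161 to 155 before the start of CLDN4, at 219 to 213 of CLDN15 and at 60 to 54 of CLDN2. The N in them stands for any base. It was a T in CLDN2 and at 242 to 236 of CLDN4, a C at 161 to 155 of CLDN4 and a G in CLDN15. With any base at N, the AP-1 letters were in none of the 6 other matched members, and in 6.6% of the 27305 promoters of the same length. The CCAAT letters also occurred in 3 of the 4 matched members that rose, CLDN7, CLDN2 and CLDN15. In all they were in 6 of the 10 windows, beside 33% of all promoters. The GC box was in 5 of the 10 (42.3% of all promoters) and the TATA box in 1 (11.1%). No match to the TEAD, E-box or GRHL letters was found in any of the 10 windows, beside shares of 11.9%, 17.5% and 1.48% of all promoters. These matches describe letters in a short window and show no binding.

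Genes whose proteins anchor keratins and claudins were looked at for the same contrast, from lists chosen by function. Of 25 tight junction genes 17 were expressed, and 3 were higher, 6 lower and 8 not past the threshold, with a median log2 fold change of -0.08. The 9 that passed are a share near the 50.8% of all genes tested. The scaffold gene TJP1, whose protein binds claudin tails, was lower. It went from 24.3 and 22.2 FPKM to 16.9 and 17.4 FPKM (log2 fold change -0.41, SE 0.06, limma adjusted p = 0.00103). The scaffold MAGI1 and the adhesion protein gene F11R were higher, with log2 fold changes of 0.48 and 0.42.

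Desmosomes tie keratin filaments to neighbouring cells. Of 19 desmosome and plakin genes 12 were expressed, and 7 were higher, 4 lower and 1 not past the threshold, with a median of 0.25. The share past the threshold was 91.7%, beside 50.8% of all genes tested (27.1% higher and 23.8% lower), and no set test was run. JUP, the plakoglobin that links desmosomal cadherins to the plaque, rose from 23.0 and 22.0 FPKM to 50.9 and 43.4 FPKM (log2 fold change 1.03, SE 0.08, limma adjusted p = 4.5e-05). The plakophilin gene PKP4 went the other way, from 23.6 and 21.9 FPKM to 10.86 and 11.02 FPKM (log2 fold change -0.99, SE 0.06, limma adjusted p = 2.6e-05), and PKP2 had a log2 fold change of -0.51. The plakin DSP, which binds keratins directly, was at 32.1 to 34.6 FPKM in all 4 libraries.

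Hemidesmosomes tie keratin filaments to the basement membrane, and all 6 listed genes were expressed, with 5 higher and 1 lower (median 0.43). All 6 thus passed, beside 50.8% of all genes tested, in a short list for which no set test was run. The integrin gene ITGB4 went from 61.5 and 64.0 FPKM to 108.7 and 106.8 FPKM, 1.72-fold (log2 fold change 0.77, SE 0.05, limma adjusted p = 2.6e-05). The transmembrane collagen gene COL17A1 and the tetraspanin gene CD151 had log2 fold changes of 0.58 and 0.53. The lower one was the plakin DST, at -0.67, which with PLEC is counted in the desmosome and plakin list as well.

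**Figure D5:**
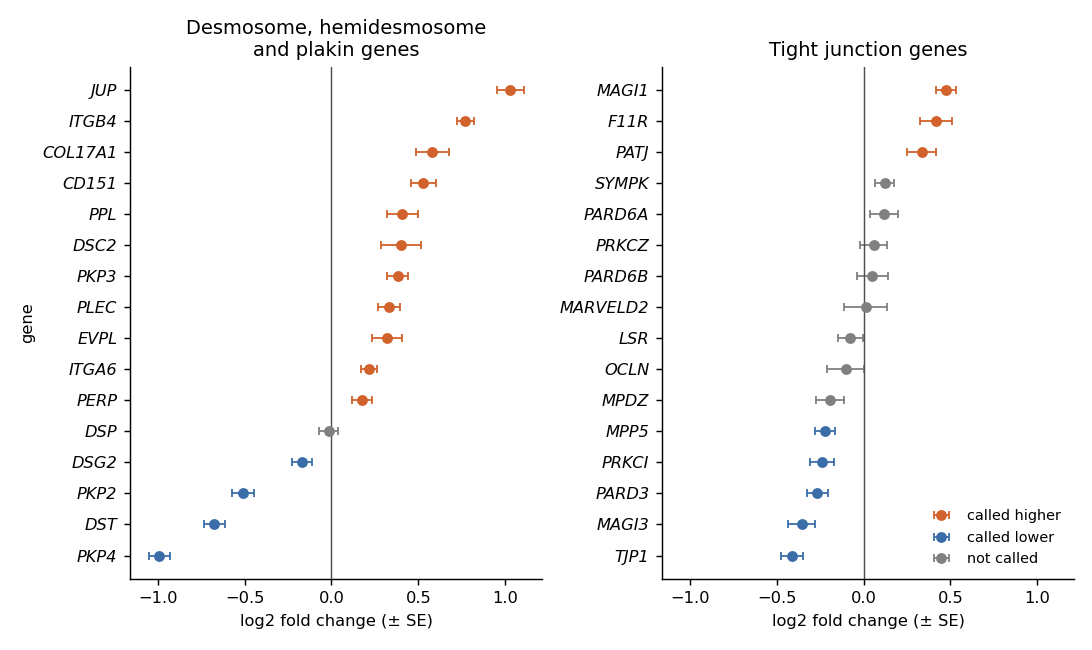
Log2 fold change of FPKM + 1, MGH-CP1 over vehicle control, with SE, for expressed genes of desmosomes, hemidesmosomes and plakins (left) and of tight junctions (right, 1 gene not reported here left out). JUP at 1.03 and ITGB4 at 0.77 lie on the right of zero and PKP4 at -0.99 on the left, and TJP1 lies on the left among the tight junction genes.

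Of the other intermediate filament genes 9 were expressed, with 4 higher and 2 lower. The share past the threshold was 66.7%, beside 50.8% of all genes tested. VIM was not past the threshold (log2 difference -0.07, limma adjusted p = 0.230). The neural progenitor filament gene NES had a log2 fold change of 0.87 and the lamin gene LMNA of 0.40, whereas LMNB1 and LMNB2 fell by 0.95 and 0.67 on the log2 scale.

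Of the epithelial markers 8 of 15 were expressed, and 4 were higher and 4 not past the threshold, a share near the 50.8% of all genes tested. The higher ones were the mucin gene MUC1 (log2 fold change 1.03), the epithelial transcription factor gene ELF3 (0.85), and the protease inhibitor and protease genes SPINT1 (0.67) and ST14 (0.46). EPCAM did not pass (log2 difference 0.17, limma adjusted p = 0.167), and CDH1 was below the limit for testing. Of the mesenchymal markers 9 of 12 were expressed, with 3 higher and 2 lower (55.6% past the threshold), led by FN1 (0.82), AXL (-0.76), CDH11 (0.56) and SNAI2 (-0.45). Among luminal breast markers 5 of 8 were expressed, and 40% of those passed, beside 50.8% of all genes tested. The 2 that passed were higher. These were TFF1, at 1.57 and 1.21 FPKM against 6.66 and 5.68, and SPDEF, at 19.4 and 18.9 FPKM against 34.3 and 33.6. XBP1 was at 34.9 to 38.1 FPKM in all 4 libraries, whereas the hormone receptor genes ESR1 and PGR did not exceed 0.0243 FPKM.

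Markers of other cell types were low. Of the 10 keratinocyte markers 2 were expressed and 1, FLG, was lower. Of the 6 haematopoietic markers only CD14 was expressed and it was higher, at 2.44 and 1.79 FPKM against 4.07 and 3.29 FPKM, while CD3E and HBB were at 0. The summed level of the haematopoietic list was 2.04 to 2.64 FPKM in the controls and 4.398 to 5.285 FPKM with MGH-CP1, and its part in the keratin and claudin results was not tested.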

How the data were processed

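The authors deposited FPKM per gene, with symbol, coordinates and length, for 4 libraries of poly-A selected RNA read as 150-base pairs. The submitters' processing notes name CASAVA 1.8, STAR and hg19; the counting tool and its use of strand are not given in the sources used here. FPKM times length was a whole multiple of one step for 100% of values (tolerance 0.01), which gave back the fragments.

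From the FPKM, genes with a mean of at least 1 were tested with limma 3.58.1 in R 4.3.3 on log2(FPKM + 1), with a variance trend, two-sided, and Benjamini-Hochberg adjustment over all 12080 genes. A model for counts was not used for the main result because the deposited unit is FPKM; limma voom on the recovered fragments (mean of at least 10) was an alternative. The others were a pseudocount of 0.1, no filter, a filter of 5 FPKM, median-ratio and quantile scaling, no trend, a replicate block, and leaving out each library. On simulated data for this comparison limma recovered 139 of 154 changed genes (90.3%) among 12077, and 17 of 156 calls were false.

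The members and gene lists were chosen with earlier results of these data known. Named genes are the expressed members, the simple keratins, KRT5, KRT14, the claudin-low genes, rarer members with at least 10 fragments, up to 4 called genes per partner list, and CDH1 and EPCAM. Other genes named were chosen after their values were seen. Shared windows of 100 bases were counted in GENCODE release 29 transcripts (GRCh38), without its coordinates. Promoters came from RefSeq, GRCh38.p14. The values of a few genes of the marker and partner lists are not reported here, although the counts over those lists include them.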

Additional observations from a re-analysis of the deposited data

How the results depend on the processing

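Under median-ratio scaling and under a pseudocount of 0.1 FPKM all 17 expressed members kept their direction and their side of the threshold. The number of genes lower was 1844 without a filter on low values, against 2869, with 24878 genes tested in place of 12080. The keratins higher were 7 under limma voom, against 4, and the keratins lower were 1 without the trend, against 3. Claudins lower, 0 in the main comparison, were 2 under quantile normalization and 2 without the trend. In both settings these were CLDN1 and CLDN11, which reached the limit for testing only through the vehicle control libraries. The log2 difference of CLDN3 turned from 0.08 to -0.053 under quantile normalization, and lay between -0.018 and 0.17 when each library was left out, with the sign turned without vehicle control replicate 1. The cause of these shifts was not tested.

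Leaving out each library in turn gave 2512 to 2991 genes higher and 2129 to 2549 lower. It gave 3 to 6 keratins higher, 1 to 3 lower, 4 claudins higher and 0 lower. Keratins at 1 FPKM or more were 8 to 9 and claudins 7 to 8. A group left with 1 library was assumed to vary like the other.

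With the replicate number as a block, 3466 genes were higher and 3052 lower, 6 keratins were higher, and 1 claudin, CLDN11, was lower (limma adjusted p = 0.0454). KRT10 and KRT86 passed under the block (limma adjusted p = 0.00764 and 0.0197). The deviations of same-numbered libraries correlated at 0.0777. The labels give only a replicate number, and with so few libraries this value cannot show whether same-numbered libraries were handled together.

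Depth limits the members below 1 FPKM, where a few fragments decide a value. Libraries number 2 per condition, and the MGH-CP1 libraries are the shallower ones.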
